A study of Mus musculus with 4 samples.

Results

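The genes described here encode LIM domain proteins of striated muscle: Csrp3, Csrp1, Csrp2, Fhl1, Fhl2, Ldb3, Pdlim1 and Pdlim3. They are 8 of the 8251 genes that the arrays measured under a single gene name. They were read by 12 of the 12422 probe sets that remain when array controls are set aside. Each was taken by symbol, where the annotation gave a probe set exactly 1 gene. A probe set for Ldb2, a LIM-binding cofactor that lists Ldb3 among its older names, was not counted. The 8 genes were selected on the knockout and wild-type values of these same arrays, so their differences between genotypes are given as a description, with no test.

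A LIM domain is a pair of zinc fingers, held by spaced cysteine and histidine residues, that binds other proteins. In striated muscle, LIM proteins sit at the Z-disc, the costamere and along titin, the giant spring of the sarcomere, and some also enter the nucleus as cofactors of transcription. Csrp3 (muscle LIM protein) is known for the dilated cardiomyopathy of mice that lack it, and Fhl1 for its part in the hypertrophic response to stretch and in inherited myopathies.

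The arrays came from ventricles at baseline. The knockout group (ERRa ko) lacked the nuclear receptor ERRα and the control group (ERRa wt) was wild type for it, with 2 one-colour arrays each, numbered as replicates 1 and 2. The labels give no age, sex or strain, no description of the allele, and no statement that the numbered samples are separate animals or pools. ERRα is a transcription factor of energy metabolism in the heart, and the comparison asked what its absence alters before any load is placed on the heart. All values are array signals in arbitrary scaled units. In bulk tissue, fewer cells of a type and less RNA per cell cannot be told apart.

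On the arrays labelled knockout, Esrra, the gene for ERRα, read 83.6 and 55.2 against 2688 and 2828 in wild type on 1 probe set, and 922 and 1050 against 8598 and 8039 on the other. Cardiomyocyte markers were present on every array: the 9 of 10 listed that were on the array summed to 1114838 and 1120384 in wild type and to 926388 and 1111390 in knockout. Knockout replicate 1 therefore had the lowest sum. Skeletal muscle markers summed to 18602 and 18918 in wild type and to 21124 and 19808 in knockout, and Ckm, which the heart also expresses, gave the largest part of that signal. The β-actin control read at its 5' end over its 3' end, a measure of RNA quality, gave 0.966 and 0.909 in wild type and 0.694 and 0.813 in knockout. The same ratio for Gapdh gave 1.039 and 1.015 in wild type and 0.994 and 0.968 in knockout, a smaller gap. Both ratios separated the genotypes. The part of RNA quality in the differences that follow was not tested.

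ERRα binds DNA at TNAAGGTCA, where N is any base, and striated muscle genes often carry a CArG box, which binds serum response factor, or a MEF2 site. These motifs were searched on both strands of RefSeq promoter windows (GRCm38.p6), each running from 250 bases before to 50 after an annotated start. The table held 12 windows for 7 of the 8 genes; Csrp2 had none. The ERRα motif was in 0 of the 12 windows, against 1.28% of all 32851 windows, which says only that these letters are absent there. A CArG box was in 5 windows, 1 of Fhl1, 2 of Fhl2 and 2 of Ldb3, against 1.63% of all windows. The 2 Ldb3 windows overlap and hold the same box, and the 2 Fhl2 windows are separate starts with a box each. A MEF2 site was in 1 window, of Fhl2, against 3.19% of all windows, and it did not overlap the CArG box there. Sequences are shown here because Csrp3 and Fhl1 had the lowest knockout signals relative to wild type of the 8 genes, and because the boxes of Fhl1, Fhl2 and Ldb3 can then be compared. Capitals mark the CArG box; no base is in capitals for Csrp3, whose windows held none of the motifs. Each runs 5' to 3' on the strand of its gene and stops before the start.

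Csrp3, chr7:48848052-48848301, minus strand: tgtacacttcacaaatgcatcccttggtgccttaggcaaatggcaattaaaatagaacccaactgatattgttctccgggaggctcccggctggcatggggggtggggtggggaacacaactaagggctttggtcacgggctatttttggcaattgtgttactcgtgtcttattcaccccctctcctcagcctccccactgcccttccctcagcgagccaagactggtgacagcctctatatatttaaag
Fhl1, chrX:56779433-56779682, plus strand: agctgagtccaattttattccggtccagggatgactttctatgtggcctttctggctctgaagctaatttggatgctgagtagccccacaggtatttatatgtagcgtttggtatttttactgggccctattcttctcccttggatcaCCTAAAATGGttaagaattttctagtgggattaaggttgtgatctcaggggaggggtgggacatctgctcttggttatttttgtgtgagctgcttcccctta
Fhl2, first start, chr1:43196823-43196882, minus strand: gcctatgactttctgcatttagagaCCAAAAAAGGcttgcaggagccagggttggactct
Fhl2, second start, chr1:43163962-43164017, minus strand: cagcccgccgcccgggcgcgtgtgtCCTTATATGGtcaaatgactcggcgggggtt
Ldb3, chr14:34588682-34588741, minus strand: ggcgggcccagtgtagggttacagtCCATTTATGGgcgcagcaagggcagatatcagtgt

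The CArG box began 102 bases before the Fhl1 start, 96 and 31 bases before the Fhl2 starts, and 35 bases before the upstream Ldb3 start. The map of motif matches shows that these positions differ between the genes. Which start the heart uses was not measured by these arrays.

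**Figure D1:**
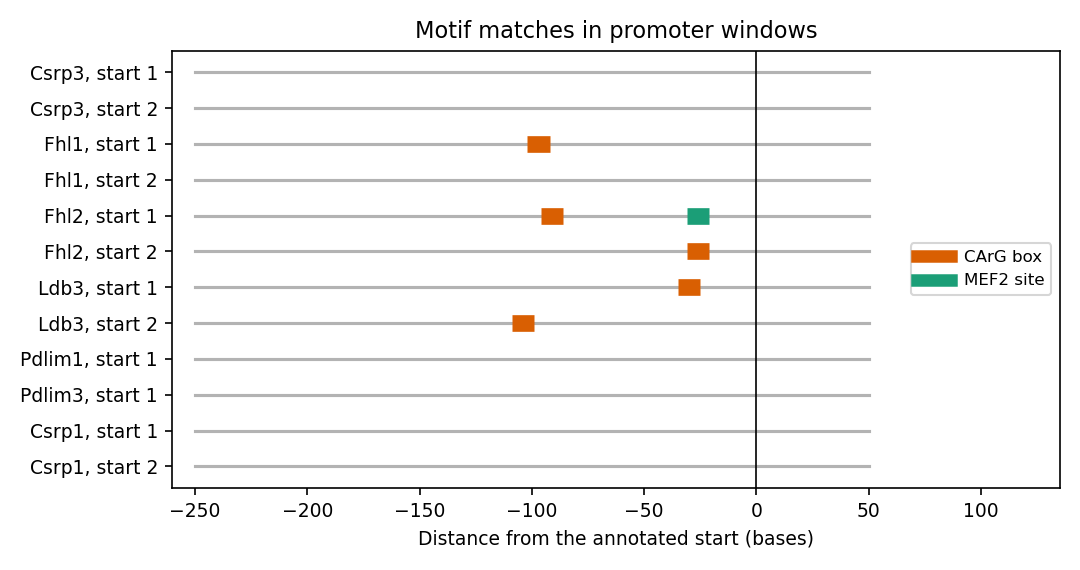
Positions of CArG boxes and MEF2 sites (coloured blocks) in each RefSeq promoter window of the LIM protein genes, in bases from the annotated start, 1 line per start. Blocks lie in windows of Fhl1, Fhl2 and Ldb3, and the lines of Csrp3, Pdlim1, Pdlim3 and Csrp1 carry none.

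Of the 12 probe sets, 11 passed the filter on dim signals, a mean over the 4 arrays of at least 350.6. The one that did not, an Fhl1 probe set (97499_at), gave 41.1 and 18.4 in wild type and 22.4 and 29.3 in knockout, all under the floor of 110 below which signals were not told apart. Among the 11, the mean was lower in knockout for 7, against 46.8% of the 7453 probe sets kept. Both knockout arrays lay below both wild-type arrays for 5, where the background over all kept probe sets was 16.7%, and above both for 2, where it was 20.7%. With a difference of at least 1.5-fold as well, 3 were lower (background 4.2%) and 1 higher (background 6.84%). Nothing is read from these counts, since the genes were chosen with this contrast known. The median log2 difference of the 11 was -0.27, against 0.03 over all kept probe sets; it was -0.16 without wild-type replicate 1 and -0.11 without knockout replicate 1.

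**Figure D2:**
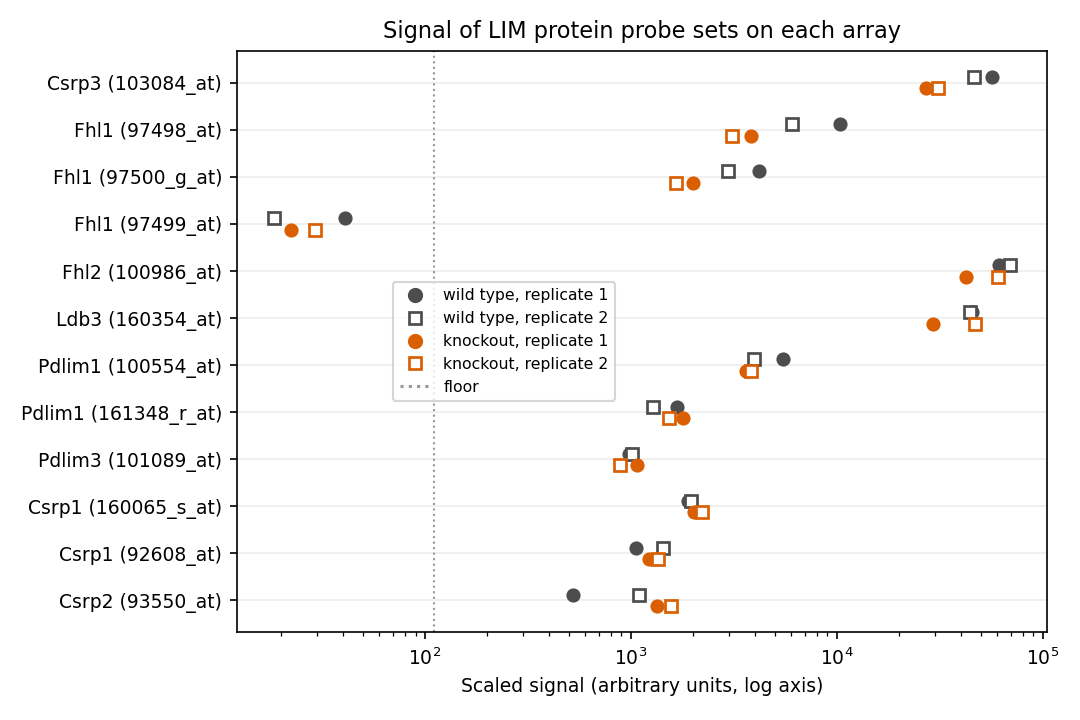
Scaled signal (log axis) of each LIM protein probe set on each array, wild type in grey and knockout in orange, circles for replicate 1 and squares for replicate 2; the dotted line is the floor of 110. Csrp3 and the 2 stronger Fhl1 probe sets have both knockout arrays to the left of both wild-type arrays, and Csrp2 has them to the right.

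Csrp3, the muscle LIM protein of the Z-disc, gave 56824 and 46575 in wild type and 27219 and 30891 in knockout. The groups did not overlap, and the gap between them was wider than the gap within either. Means were 51699 ± 7247 and 29055 ± 2596 (SD, n = 2 each). The difference of the mean log2 signals was -0.83, a 1.77-fold lower signal in knockout; here and below, folds come from mean log2 signals, not from the ratio of mean signals. With 1 array left out the difference ran from -0.97 to -0.68. Cardiomyocyte markers lay slightly lower in knockout, with 8 of 9 lower in mean (46.8% of all kept probe sets) and a median log2 difference of -0.12. The largest of those was for Mb, myoglobin, at 1.21-fold. Of the 9, 3 were lower without overlap (16.7% of all kept probe sets). Their sum was 926388 on knockout replicate 1 but 1111390 on knockout replicate 2, near the 1114838 and 1120384 of wild type. The part of these markers in the Csrp3 difference was not tested.

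Its paralogs Csrp1 and Csrp2, which belong more to smooth muscle and other cells than to the cardiomyocyte, did not share that direction. Csrp2 gave 524 and 1090 in wild type and 1333 and 1565 in knockout. The groups did not overlap, but the wild-type arrays stood further apart than wild-type replicate 2 stood from the knockout arrays. The log2 difference was 0.93, a 1.91-fold higher signal in knockout; it was 0.41 without wild-type replicate 1 and 1.46 with wild-type replicate 2 left out. Csrp1 gave 1903 and 1968 in wild type and 2036 and 2214 in knockout on its stronger probe set (160065_s_at), a 1.10-fold higher signal without overlap (log2 0.13), which was 0.07 without knockout replicate 2. After scaling to equal medians this difference was 0.01 and the groups overlapped. On its other probe set (92608_at) Csrp1 gave 1063 and 1434 against 1227 and 1347, with overlap, and a difference of 0.06 that ran from -0.16 without wild-type replicate 1 to 0.27 without wild-type replicate 2.

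Smooth muscle markers were measured beside Csrp1 and Csrp2. The 9 on the array summed to 20009 and 20224 in wild type and to 34628 and 25903 in knockout. Acta2, smooth muscle α-actin, supplied that excess, with 4135 and 2909 against 18753 and 10916; without it the other 8 genes summed to 15874 and 17315 against 15874 and 14987. Tagln and Myh11, other defining genes of smooth muscle, had log2 differences of -0.08 and -0.0044. Both were chosen after their values were seen. Of the 8 fibroblast markers, 7 were higher in knockout without overlap, against 20.7% of all kept probe sets, and the list summed to 70812 and 82559 in wild type and to 96815 and 100002 in knockout. Whether either cell type had a part in the Csrp2 difference was not tested.

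Fhl1 is a LIM-only protein that binds titin and relays stretch signals. On its strongest probe set (97498_at) it gave 10390 and 6060 in wild type and 3839 and 3087 in knockout. The groups did not overlap, and wild-type replicate 1 stood far above the rest. Means were 8225 ± 3062 and 3463 ± 532 (SD, n = 2 each). The difference of the mean log2 signals was -1.20, a 2.31-fold lower signal in knockout (-0.82 without wild-type replicate 1 and -1.59 with wild-type replicate 2 left out). A second probe set (97500_g_at) gave 4178 and 2971 against 1998 and 1664, 1.93-fold lower (log2 -0.95). The order of the 4 arrays was the same on both: wild-type replicate 1, wild-type replicate 2, knockout replicate 1, knockout replicate 2. Both probe sets carry the same gene name and read the same RNA samples, so the second adds no replicate.

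Fhl2, a LIM-only relative of Fhl1 that also binds titin and dampens calcineurin signalling, gave 61392 and 69372 in wild type and 42293 and 60448 in knockout. The groups were separated only narrowly, since knockout replicate 2 lay just under wild-type replicate 1. The signal was 1.29-fold lower in knockout (log2 -0.37). That value was -0.11 without knockout replicate 1 and became -0.63 with knockout replicate 2 left out. After quantile normalization the Fhl2 groups overlapped.

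The remaining members carry a PDZ domain beside their LIM domains and tie to α-actinin, the crosslinker of the Z-disc. Ldb3, also called Cypher or ZASP, gave 45392 and 44300 in wild type and 29449 and 47119 in knockout. Knockout replicate 1 alone was low and knockout replicate 2 was the highest of all, so the groups overlapped. The log2 difference was -0.27, and 0.07 without knockout replicate 1 and -0.61 without knockout replicate 2. After scaling to equal medians it was -0.39, and both knockout arrays then lay below both wild-type arrays. Knockout replicate 1 also had the lowest Fhl2 signal and the lowest sum of cardiomyocyte markers, as given above, and whether these are linked was not tested.

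Pdlim1 (CLP36) gave 5495 and 3983 in wild type and 3630 and 3821 in knockout on its stronger probe set (100554_at). The groups did not overlap, although knockout replicate 2 lay close to wild-type replicate 2. The log2 difference was -0.33, and it was -0.10 without wild-type replicate 1 and -0.56 with wild-type replicate 2 left out. The weaker probe set (161348_r_at) gave 1683 and 1287 against 1797 and 1532, with overlap and a difference of 0.17, which ran from -0.02 without wild-type replicate 2 to 0.37 without wild-type replicate 1. The 2 Pdlim1 probe sets thus differ in sign. Pdlim3 (ALP) gave 982 and 1013 in wild type and 1067 and 888 in knockout, with both wild-type arrays between the knockout arrays (log2 -0.04; 0.10 without knockout replicate 2 and -0.17 without knockout replicate 1).

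**Figure D3:**
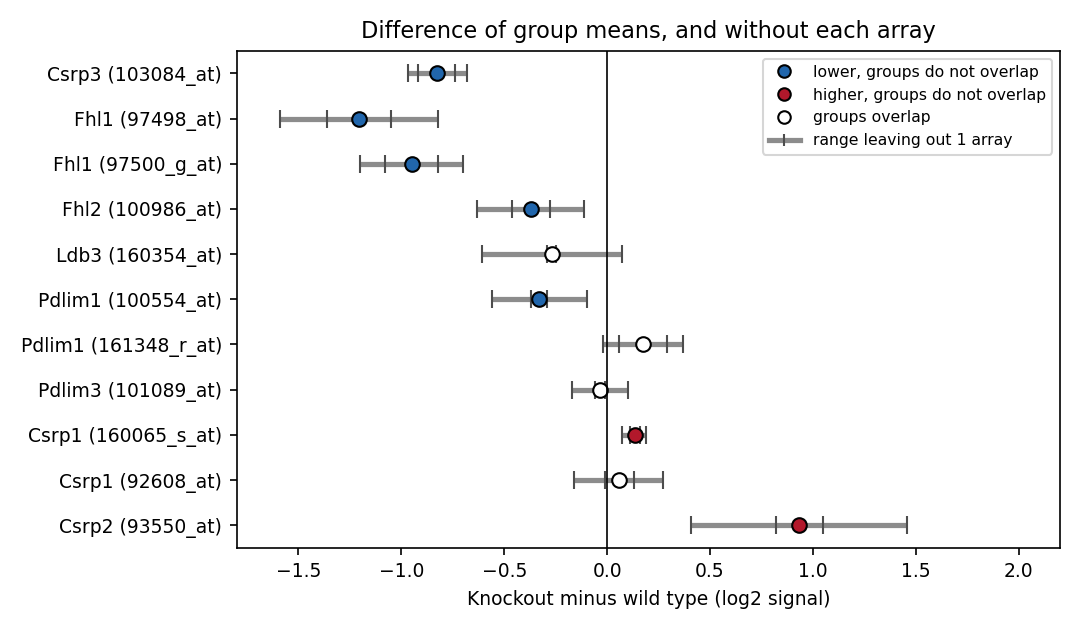
Knockout minus wild type (log2 signal) for the 11 probe sets kept; filled points mark groups that do not overlap, bars span the values obtained when 1 array is left out, and ticks are those 4 values. Bars of filled points cannot cross 0, so only their length is informative. Among them the bar of the stronger Csrp1 probe set comes closest to 0, at 0.07, and that of Csrp2 reaches 0.41. The bars of all overlapping groups cross 0: Ldb3, Pdlim3 and the weaker Csrp1 and Pdlim1 probe sets.

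The signs of the Csrp3, Csrp2, Fhl1, Fhl2, Ldb3 and Pdlim3 differences, and of both Pdlim1 probe sets and the stronger Csrp1 probe set, were the same under quantile normalization and median scaling. The weaker Csrp1 probe set was at 0.01 and -0.07. Median scaling moved the median of all probe sets by -0.126, and relative to the median of all probe sets Csrp3 lay at -0.86 before it and -0.86 after it, and the strongest Fhl1 probe set at -1.24 and -1.23. Over all kept probe sets, 510 were at least 1.5-fold higher without overlap and 313 lower (62.0% higher); the split was 391 and 420 (48.2% higher) after quantile normalization and 324 and 527 (38.1% higher) after median scaling.

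Other LIM domain genes showed no call. Of 42 listed, 24 were on the array and 21 passed the filter. Of the 21, limma called 0 at an adjusted p under 0.05, against 0.0134% of all kept probe sets, which is the 1 call for Esrra. Both Esrra probe sets were kept and at least 8.4-fold lower in knockout, so the threshold missed 1 of them. Here and below, 0 calls is therefore not read as no change. At an unadjusted p under 0.05 by limma there was 1 of the 21, against 506 of all 7453 kept probe sets (6.79%). The list was drawn up with earlier results of these arrays known. Its median log2 difference was -0.14, with 13 lower in mean and 8 higher, against the median of 0.03 over all; the median was 0.03 without wild-type replicate 2. Trip6, a zyxin-family adaptor of focal adhesions, had the lowest p, with 1370 and 1522 in wild type and 2103 and 2311 in knockout (log2 0.61, SE 0.20, limma adjusted p = 0.694). Lima1, an actin-bundling protein, followed with 970 and 1026 against 715 and 751 (log2 -0.45, SE 0.20, limma adjusted p = 0.752). Nrap, which anchors actin at the ends of myofibrils, gave 17977 and 14553 against 12265 and 13535 (log2 -0.33), and Pdlim7, a PDZ and LIM relative of Ldb3, 1766 and 1912 against 2195 and 2694 (log2 0.40); both were chosen after their values were seen. Of the 21, 7 were lower without overlap (16.7% of all kept probe sets) and 6 higher (20.7% of all).

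Partners at the Z-disc, titin and the costamere also gave 0 limma calls among 17 genes kept of 34 listed, with 3 of the 17 at an unadjusted p under 0.05 (6.79% of all kept probe sets). The median log2 difference was -0.09, with 9 lower in mean and 8 higher, and it was 0.09 without wild-type replicate 1 and 0.09 without knockout replicate 2. Actn1, a non-muscle α-actinin, gave 1536 and 1635 in wild type and 2396 and 2788 in knockout (log2 0.71, SE 0.21, limma adjusted p = 0.694). Capzb, which caps actin filaments at the Z-disc, gave 10917 and 9633 against 14588 and 15948 (log2 0.57, SE 0.21, limma adjusted p = 0.722). Actn2, the muscle α-actinin to which the PDZ and LIM proteins tie, gave 2542 and 1391 against 1913 and 3268, with overlap. Tcap, the titin cap that joins Csrp3 at the Z-disc, gave 1463 and 1229 against 1619 and 2468 (log2 0.58). Bag3, a chaperone partner at the Z-disc, gave 14164 and 11761 against 9288 and 7057 (log2 -0.67, and -0.76 on its weaker probe set). Smyd1, a muscle methyltransferase, gave 14987 and 16050 against 11133 and 5654 (log2 -0.97). Actn2, Tcap, Bag3 and Smyd1 were chosen after their values were seen.

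Among signalling and transcription partners, which include calcineurin, the MAP kinases and the muscle transcription factors, limma called 0 of 20 genes kept of 28 listed, with 1 of the 20 at an unadjusted p under 0.05 (6.79% of all kept probe sets). The median was 0.05, with 8 lower in mean and 12 higher; it was 0.13 without knockout replicate 1 and 0.01 without any 1 of the other arrays. Mef2a gave 3799 and 4635 in wild type and 6097 and 7276 in knockout (log2 0.67, SE 0.23, limma adjusted p = 0.705). Ldb1, a cofactor that binds LIM domains in the nucleus, gave 1132 and 1395 against 890 and 865 (log2 -0.52, SE 0.22, limma adjusted p = 0.745). Rcan1, a calcineurin inhibitor that calcineurin itself induces, gave 12019 and 3433 against 2301 and 2590; it was chosen after its values were seen. Wild-type replicate 1 alone was high for Rcan1, the array that was also highest for both Fhl1 probe sets.

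**Figure D4:**
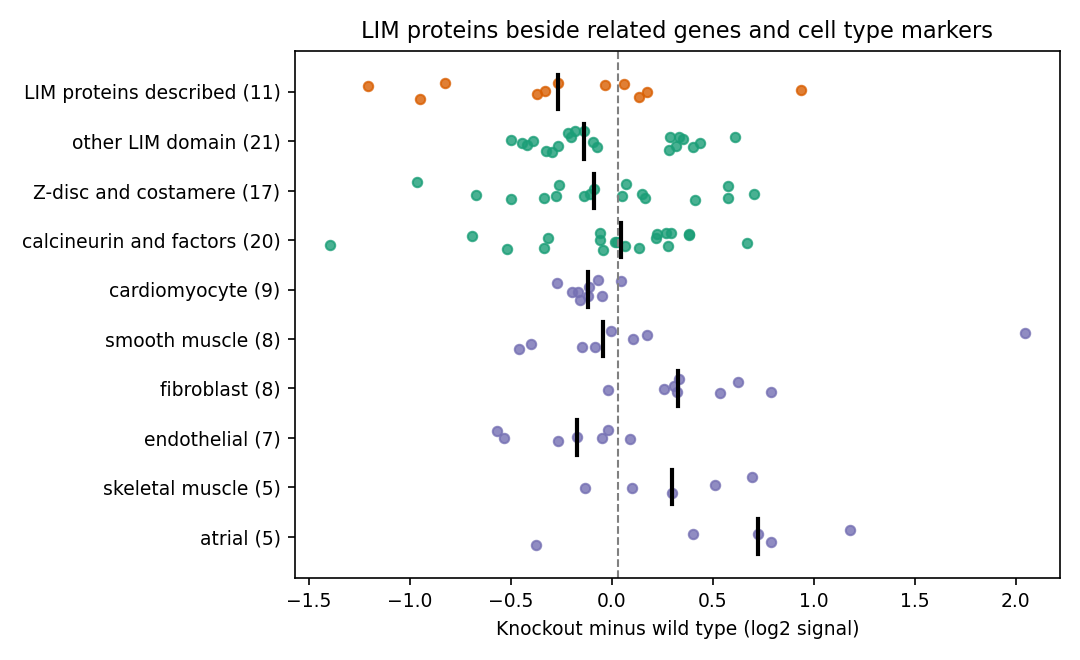
Knockout minus wild type (log2 signal) of the 11 LIM protein probe sets, of genes in the 3 related lists and of cell type markers (1 probe set per gene in the lists, number of points in brackets); bars are medians and the dashed line is the median of all kept probe sets. The LIM proteins described run from -1.20 to 0.93, and their median is -0.27. No order of the list medians is read from the plot, since the members were chosen on this contrast and the medians of the members and of the other LIM genes were both -0.16 without wild-type replicate 1.

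The other marker lists gave 0 limma calls each. At an unadjusted p under 0.05, where 6.79% of all kept probe sets lay, there were 0 of 9 cardiomyocyte, 1 of 8 smooth muscle, 1 of 8 fibroblast, 0 of 7 endothelial, 0 of 5 skeletal muscle and 2 of 5 atrial genes kept. Named by size, the extremes were Acta2 at log2 2.05 and Kcnj8 at -0.46 for smooth muscle, Lum at 0.79 and Postn at -0.02 for fibroblasts, Kdr at 0.09 and Tie1 at -0.57 for endothelium, Pvalb at 0.69 and Ckm at -0.13 for skeletal muscle, Ryr2 at 0.05 and Mb at -0.27 for cardiomyocytes, and Myl4 at 1.18 and Kcna5 at -0.38 for the atrium. On their weaker probe sets Tie1, Ckm and Myl4 had log2 differences of -0.25, 0.54 and 0.58, so the sign of Ckm differed. The endothelial markers summed to 31969 and 25432 in wild type and to 25231 and 22775 in knockout, and the atrial markers to 13277 and 11280 against 20114 and 19166. The part of atrial tissue in the LIM protein values was not tested.

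Among 1216 genes of strong signal that are not members, those whose profile over the 4 arrays lay closest to that of Csrp3 were Clu, Lsm3, Mknk2, Mrpl34 and Dync1h1, at root mean square distances of 0.072 to 0.118 on the centred log2 scale. Clu, clusterin, gave 22402 and 18647 in wild type and 9841 and 11055 in knockout. For the strongest Fhl1 probe set they were Acta1, Hsp90aa1, Slc6a6, Hrc and Mknk2, at 0.128 to 0.268. Acta1, skeletal α-actin, gave 48309 and 31096 in wild type and 19417 and 18373 in knockout, and Hsp90aa1, a cytosolic chaperone, gave 14857 and 7662 against 6007 and 5316. Both were highest on wild-type replicate 1, as Fhl1 was, which follows from choosing them by closeness to its profile. With 4 arrays such likeness is a description.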

How the data were processed

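Signals were linear intensities, 1 per probe set and array, already scaled when the authors deposited them; the mean without the top and bottom 2% was 1501 on each array. Per the labels' protocols, biotin-labelled cRNA was hybridized; the software, background correction and genome build are not given in the sources used here. The precision is limited by the 4 arrays.

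Names came from the platform annotation, updated by gene identifier through RefSeq (10817 of 10833 single-gene probe sets matched). Controls (66) were left out, as were probe sets with a mean under the 40th percentile (350.6), leaving 7453. Signals under the 20th percentile (110) were set to it, then log2 was taken. limma 3.58.1 in R 4.3.3 (lmFit, eBayes) was fitted across all kept probe sets, with Benjamini-Hochberg adjustment at 0.05, and was tested on simulated data. Each p-value sets a difference against a spread between samples that limma estimates partly from all kept probe sets. That spread may be technical. With 2 arrays a group, the smallest two-sided exact permutation p is 0.333. Replicate numbers are not stated to pair samples, so the comparison was unpaired.

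The members and the gene lists were chosen with earlier results of these data known. The text names all members, Esrra, the 2 list genes of lowest p, the extremes of each marker list and the 5 closest profiles; others are marked. List values use the strongest probe set of a gene. Promoters came from RefSeq GRCm38.p6. Protein sequences were not used here.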

Additional observations from a re-analysis of the deposited data

How the results depend on the processing

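The number of probe sets called by limma, 1 in the main setting, was 0 with the floor at the 5th or 40th percentile, 0 with no filter, 0 without suffixed probe sets, 0 without any 1 array and 0 with the replicate block, and 2 with the filter at the 60th percentile and 2 with the trend and robust prior; the related lists had 0 calls in all 13 alternatives. Deviations of same-numbered arrays correlated at 0.011 over 7453 probe sets. With 1 array per genotype and number, this value cannot settle whether the numbers pair samples. The 510 higher and 313 lower probe sets (1.5-fold, no overlap) became 958 and 530 with no filter, 183 and 144 with the filter at the 60th percentile, 324 and 527 after median scaling, and 796 to 862 and 565 to 661 without 1 array, where fewer arrays make overlap rarer. The number of member probe sets lower in mean was 6 to 8 and lower without overlap 4 to 6 over 12 alternatives, where leaving out an array cannot reduce the second count. Their median of -0.27 was -0.15 with no filter, -0.39 after median scaling and -0.37 to -0.11 without 1 array. The median of the other LIM genes was -0.18 with the filter at the 60th percentile, -0.26 after median scaling and -0.16 to 0.03 without 1 array. The Z-disc median was -0.21 after median scaling, -0.24 without suffixed probe sets and -0.09 to 0.09 without 1 array, and the signalling median -0.08 after median scaling and 0.01 to 0.13 without 1 array. Leaving out 1 array turned the sign of Ldb3 (0.07), of Pdlim3 (0.10) and of the weaker Csrp1 (-0.16) and Pdlim1 (-0.02) probe sets, whose groups overlap; it cannot turn the sign where groups do not overlap, so those signs are no sign of stability. No count behind a signal was held, so low signals are limited by the floor.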
